A study of Mus musculus with 6 samples.

Results

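The hearts of mice that received pemafibrate in a steatohepatitis diet were compared with the hearts of mice on normal chow. The comparison asks what still differed from chow in the heart when the drug was given with the diet. It uses the 2 libraries of the NP group (the diet with pemafibrate) and the 2 libraries of the C group (chow), chosen by the groups in the labels, so 4 of the 6 libraries of the series. The other 2 libraries come from the N group, which received the same diet without the drug. Their values are given beside those of the comparison for part of the genes, and they share the C libraries with it wherever a difference from chow is given.

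The study fed male C57BL/6J mice a chow diet, a diet high in fat, cholesterol and sucrose that also held bile acid (the NASH diet), or that diet with pemafibrate at 0.1 mg/kg. Pemafibrate is a selective modulator of PPARα. The labels give 3 weeks of feeding for all groups, while the methods of the study describe a longer period. The sources give neither the age of the mice nor the hour at which the hearts were collected, and do not say whether a library came from 1 heart or from pooled hearts. The data columns of replicate 1 of the N and NP groups carry the word heart in their names and those of replicate 2 carry a mark for 3 weeks. Whether replicates 1 and 2 of these groups were collected separately is not stated, and the NP means are taken over both.

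Expression was measured by stranded mRNA sequencing and deposited as FPKM, a fragment count divided by the exon length of the gene and by the mapped total of the library. The files hold no read totals, so the depth of each library was estimated from the even spacing of its lowest FPKM values. The estimates, in mega reads (M), were 26.3 and 21.6 M reads for C replicates 1 and 2. They were 8.24 and 8.49 M reads for NP replicates 1 and 2, and 8.78 and 8.69 M reads for N replicates 1 and 2. The C libraries were thus 2.55 to 3.19 times as deep as the NP libraries, and depth cannot be told apart from the group. Of the 24346 genes in the files, 7852 and 7894 were listed at 0 in the C libraries, against 8844 and 8541 in the NP libraries.

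PPARα is a nuclear receptor that is activated by fatty acids and fibrates and, in the heart, controls genes for the import, storage and oxidation of fatty acids. LXR is a related receptor that senses oxidised cholesterol and controls cholesterol export and fatty acid desaturation. The atria and the ventricles of the heart use different forms of the myosin light chains, and the atria also secrete natriuretic peptide, so that RNA from the 2 kinds of chamber can be recognised in a heart library.

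The label gives heart as the tissue, although the extraction text of the same labels names liver. Markers of heart muscle were at very high levels in the 4 libraries compared. Myh6, the main myosin heavy chain of the adult mouse heart, was at 5501 and 5024 FPKM in the C libraries and at 6856 and 4814 FPKM in the NP libraries. Tnnt2, cardiac troponin T, was at 8599 and 9822 FPKM in the C libraries and at 8031 and 8964 FPKM in the NP libraries. Actc1, cardiac actin, was at 9485 and 9404 FPKM in the C libraries and at 9462 and 11324 FPKM in the NP libraries. The 2 groups overlapped for these 3 genes. Of the 14 listed heart muscle genes, 11 were lower in the NP group and 3 higher, Myh6 and Actc1 among the latter. Their median log2 difference was -0.14. Of the 14 genes, 4, Mb, Ckm and Tnni3 among them, were lower in both NP libraries than in both C libraries. The same held for 2972 of all 12923 genes tested. With values scaled to the same FPKM total in each library, 6 of the 14 were lower and their median was 0.02. In these bulk samples, fewer cells of a type and less RNA per cell cannot be told apart.

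Compared to the C group, the NP group had higher levels of atrial genes and of 1 gene of pigment cells, the only genes that passed the test. Differences that did not pass it were lower levels of most PPARα targets, mitochondrial genes and macrophage genes, and higher levels of most LXR targets and matrix genes. The test was limma on log2(FPKM + 1) over the 12923 genes whose FPKM averaged 0.5 or more across the 6 libraries, and a gene passed with an adjusted *P* below 0.05. Of these genes, 5 passed (0.0387%), 5 higher and 0 lower in the NP group. Before adjustment, limma gave a *P* below 0.05 to 500 genes that were higher (3.87%) and to 540 that were lower (4.18%). A difference of at least 1.5-fold on log2(FPKM + 1) with no overlap between the groups was found for 214 genes higher in the NP group (1.66%). It was found for 245 genes lower (1.9%). At any size of difference, the groups did not overlap for 2526 genes higher in the NP group and 2972 lower. A lack of overlap alone was thus common. An exact permutation test of 2 against 2 libraries cannot give a *P* below 0.333, so the *P* values come from the spread that limma pools over genes and groups, and they measure only the spread between these libraries.

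The counts depended on single libraries. Without C replicate 1, 101 genes passed, 10 higher and 91 lower, and the lower ones included the liver genes Alb, Apoa1, Mup20 and Fabp1, which C replicate 2 carried. Without C replicate 2, 12 genes passed. Without NP replicate 1, 14 genes passed, 418 genes met the 1.5-fold rule upward and 410 downward. Without NP replicate 2, 487 genes met the rule downward. Of the 245 lower genes, 92 had C libraries at least 1 log2 unit apart, and C replicate 2 was the higher one for 91 of them. The same FPKM total in each library gave 357 genes higher and 159 lower by the fold rule, and moved the median of all genes by 0.13 on the log2 scale from its value of -0.01. With a block for the replicate number among the N and NP libraries, 55 genes passed, 36 higher and 19 lower. Among the genes described here that passed only in alternative settings, those past the threshold with this block were Bmp10, Nppa, Gja5, Scd2, Gpx3, Igfbp5, Ucp2 and Ccl19, which were higher, and Pdk4, Gpam, Cox7a1, Psmg4, Mgst3, Gchfr, Tyrobp, Cd163, Ccl6 and Txnip, which were lower.

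In the plot of all genes tested, the atrial genes stand apart at the top right, away from the body of genes around 0.

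**Figure D1:**
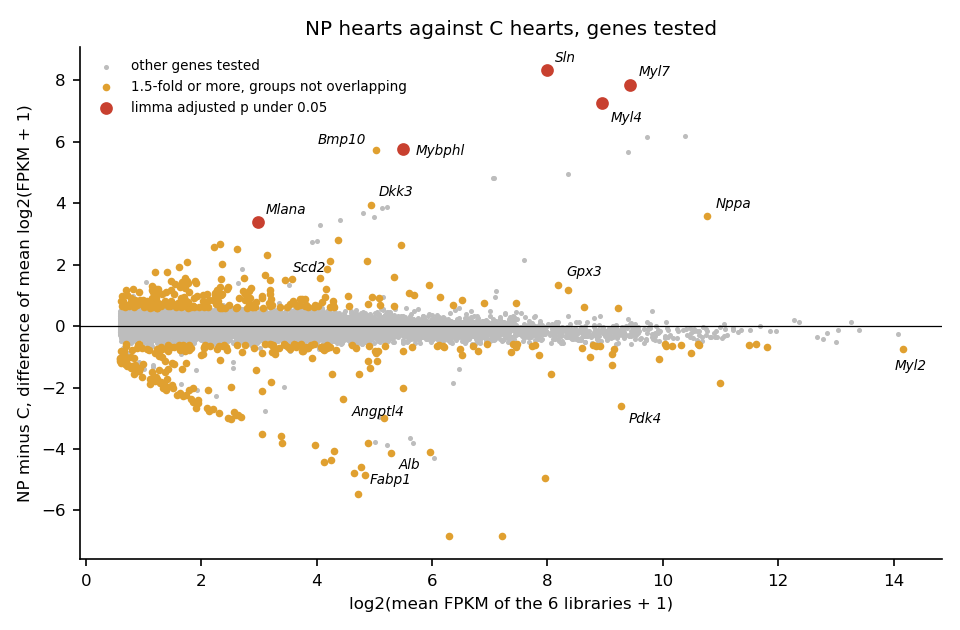
Difference between the NP and C groups in mean log2(FPKM + 1) against the mean level in the 6 libraries, 1 point for each of the 12923 genes tested. Red points are the 5 genes with a limma adjusted P under 0.05, and orange points are the genes at least 1.5-fold apart with no overlap between the groups.

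Atrial genes showed the widest gap between the groups. Of the 15 genes listed for the atrial chamber, 14 passed the level filter and 4 rose in the NP group by the test. All 14 were above both C libraries in both NP libraries, as were 2526 of the 12923 genes tested. The median difference of the 14 was 3.19 on the log2 scale, against -0.01 for all genes tested. The 1.5-fold rule was met upward by 13 of them. The summed level of the listed atrial genes was 365 and 257 FPKM in the C libraries and 3996 and 6551 FPKM in the NP libraries. It was 3892 and 5473 FPKM in the N libraries, so the hearts on the diet without the drug also carried these genes at high levels. The most abundant listed gene in these libraries was Nppa.

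The atrial myosin light chains were at a few FPKM in the C hearts and among the abundant messages in the NP hearts. Myl7 (chr11:5896637-5898782 of mm10), the atrial regulatory light chain, was at 1.51 and 6.70 FPKM in the C libraries and at 781 and 1319 FPKM in the NP libraries. It rose by 7.85 on the log2 scale in the NP group (limma adjusted *P* = 0.0222), both NP libraries lying far above both C libraries. Myl4 (chr11:104546017-104587215), the atrial essential light chain, was at 2.14 and 6.71 FPKM in the C libraries and at 554 and 1029 FPKM in the NP libraries. It rose by 7.26 on the log2 scale (limma adjusted *P* = 0.0222) in both NP libraries. The N libraries lay beside the NP libraries, with Myl7 at 857 and 1193 FPKM and Myl4 at 547 and 815 FPKM. These 2 calls were lost without NP replicate 1, without NP replicate 2, and when the N libraries were left out of the model.

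Genes of atrial calcium handling and of the atrial sarcomere followed. Sln (chr9:53850251-53853849) encodes sarcolipin, the atrial inhibitor of the calcium pump of the sarcoplasmic reticulum. It was listed at 0 and at 0.450 FPKM in the C libraries, and at 287 and 518 FPKM in the NP libraries. Its log2 difference was 8.33 (limma adjusted *P* = 0.00658), with both NP libraries above both C libraries. Mybphl (chr3:108364911-108380057), a myosin-binding protein of the atria and the conduction system, was at 0.142 and 0.388 FPKM in the C libraries and at 52.4 and 87.9 FPKM in the NP libraries. It rose by 5.77 on the log2 scale (limma adjusted *P* = 0.00658) in both NP libraries. The N libraries held Sln at 250.3 and 462 FPKM and Mybphl at 54.8 and 69.7 FPKM, near the NP values. All 5 calls of the comparison were lost when the level filter was removed, a setting in which limma passed 0 of 17880 genes, with 1353 at an unadjusted *P* below 0.05.

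The atrial secreted factors were high in the NP group and did not pass the test, although of 16 alternative settings Bmp10 passed it in 7, Nppa in 3 and Dkk3 in 3. Nppa, which encodes atrial natriuretic peptide, was at 303 and 158 FPKM in the C libraries and at 2082 and 3259 FPKM in the NP libraries. The NP mean was 11.6-fold that of the C group, with no overlap between the libraries (log2 difference 3.57, limma adjusted *P* = 0.0911). The N libraries held 1992 and 2647 FPKM of Nppa. Bmp10, a growth factor of the atria, was listed at 0 and 0.0830 FPKM in the C libraries and at 44.0 and 66.9 FPKM in the NP libraries (limma adjusted *P* = 0.0578). Dkk3, a secreted protein of the Dickkopf family, was at 0.720 and 4.12 FPKM in the C libraries and at 40.7 and 49.4 FPKM in the NP libraries. Sbk3, a kinase of heart muscle, was at 1.85 and 6.11 FPKM in the C libraries and at 24.5 and 38.4 FPKM in the NP libraries.

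The fifth gene past the threshold, Mlana (chr19:29697541-29708447), encodes melan-A, an antigen of pigment cells, and was not in the atrial list. It was listed at 0 in both C libraries and was at 10.8 and 8.34 FPKM in the NP libraries, and at 9.61 and 12.7 FPKM in the N libraries. Its log2 difference was 3.39 (limma adjusted *P* = 0.00738), both NP libraries being above both C libraries. The call was also lost without C replicate 2.

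The promoters of 5 genes are shown because these genes mark the groups that stood apart: 4 from the atrial list and Ucp3 from the PPARα targets. Each sequence is the 250 bases before the annotated start, 5′ to 3′ on the strand of the gene, from RefSeq on build GRCm38.p6. Capitals mark a match on either strand to 1 of 4 motifs: AGATAA for GATA factors, AGGTGT for T-box factors, the CArG box of serum response factor, and the nuclear receptor half-site AGGTCA. The regions are chr3:108364661-108364910 on the plus strand for Mybphl, chr11:5898783-5899032 on the minus strand for Myl7, chr4:148000472-148000721 on the plus strand for Nppa, chr6:87428744-87428993 on the plus strand for Bmp10 and chr7:100472741-100472990 on the plus strand for Ucp3.
Mybphl: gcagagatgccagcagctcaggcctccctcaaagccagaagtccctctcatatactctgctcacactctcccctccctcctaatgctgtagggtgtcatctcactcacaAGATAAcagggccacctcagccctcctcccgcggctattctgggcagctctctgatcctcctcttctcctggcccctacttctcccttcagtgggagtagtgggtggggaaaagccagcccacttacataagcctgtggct
Myl7: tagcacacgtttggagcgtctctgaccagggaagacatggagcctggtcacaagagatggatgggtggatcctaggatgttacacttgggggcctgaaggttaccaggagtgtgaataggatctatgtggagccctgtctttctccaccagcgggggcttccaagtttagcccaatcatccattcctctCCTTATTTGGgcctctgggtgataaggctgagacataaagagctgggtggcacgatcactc
Nppa: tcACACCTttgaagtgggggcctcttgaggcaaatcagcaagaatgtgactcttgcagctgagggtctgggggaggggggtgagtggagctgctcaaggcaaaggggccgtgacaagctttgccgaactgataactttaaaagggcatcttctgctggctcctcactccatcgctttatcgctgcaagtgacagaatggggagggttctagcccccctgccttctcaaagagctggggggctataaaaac
Bmp10: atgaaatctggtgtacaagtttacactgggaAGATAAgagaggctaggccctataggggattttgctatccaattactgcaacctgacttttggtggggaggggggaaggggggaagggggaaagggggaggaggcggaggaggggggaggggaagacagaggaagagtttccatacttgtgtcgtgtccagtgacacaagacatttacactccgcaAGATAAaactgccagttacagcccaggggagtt
Ucp3: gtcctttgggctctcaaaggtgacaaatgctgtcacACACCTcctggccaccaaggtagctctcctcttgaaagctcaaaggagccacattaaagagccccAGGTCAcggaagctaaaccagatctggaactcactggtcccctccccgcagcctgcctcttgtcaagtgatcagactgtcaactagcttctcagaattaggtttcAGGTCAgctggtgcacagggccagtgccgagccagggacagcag
Mybphl held 1 GATA match, 141 to 136 bases before the start, and Bmp10 held 2, at 219 to 214 and at 33 to 28 bases. Myl7 held 1 CArG box at 61 to 52 bases before its start, and Nppa held 1 T-box match at 248 to 243 bases. Ucp3 held 2 half-sites, at 149 to 144 and at 44 to 39 bases, and 1 T-box match at 214 to 209 bases. The same window of Pdk4 was also searched and held 1 GATA match at 61 to 56 bases. The window given for Myl4, chr11:104550413-104550662, lies inside the gene as printed above and not before its first base, so it is not described. Of 32851 mouse promoters of this length, 9.99% held the GATA letters, 11.8% the T-box letters, 1.47% a CArG box and 14.0% the half-site, so these matches only describe the sequence.

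Ventricular genes went the other way in part. Of the 10 genes listed for the ventricular chamber, 0 passed in limma, while 2 were lower and 0 higher at an unadjusted *P* below 0.05, and their median difference was -0.13. That median was 0.00 with the same FPKM total in each library and 0.01 with quantile normalization. Myl2, the ventricular regulatory light chain, was at 24053 and 26366 FPKM in the C libraries and at 12145 and 18366 FPKM in the NP libraries, which did not overlap. Myl3, the ventricular essential light chain, was at 8780 and 8983 FPKM in the C libraries and at 6131 and 7054 FPKM in the NP libraries. Myh7, the slow myosin heavy chain of the fetal and stressed heart, was at 26.4 and 29.3 FPKM in the C libraries and at 33.6 and 36.8 FPKM in the NP libraries. The amount of atrial tissue in each sample was not recorded in the sources, and atrial tissue cannot be told apart from the group.

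In the plot of chamber genes, the atrial genes of the NP libraries sit with those of the N libraries and above those of the C libraries, while Tnnt2 lies close together in the 3 groups.

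**Figure D2:**
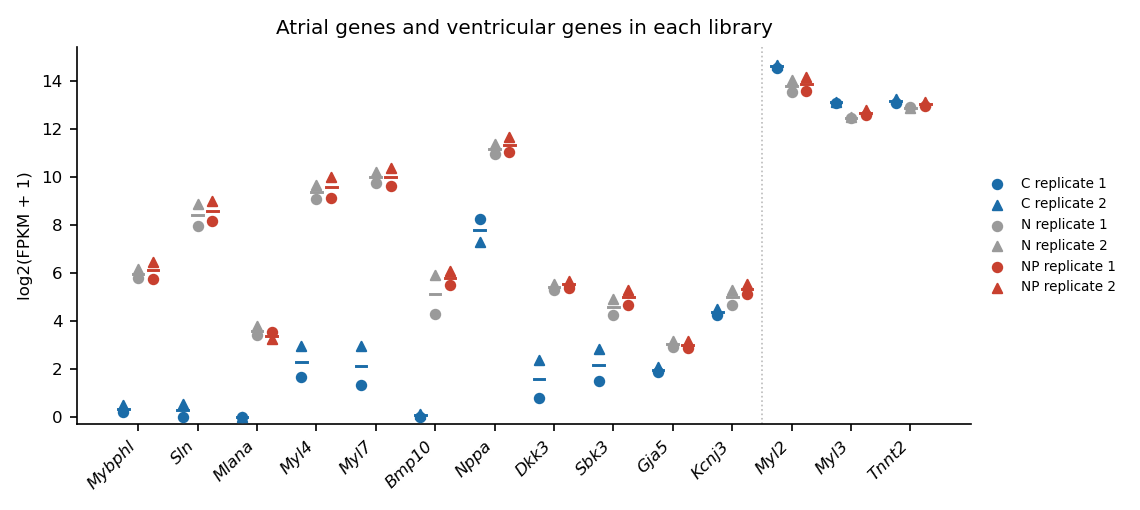
Level of atrial genes (left of the dotted line) and of ventricular and general heart muscle genes (right) in each library, as log2(FPKM + 1), with bars at the group means. Myl7 lies at 1.51 and 6.70 FPKM in the C libraries and at 781 and 1319 FPKM in the NP libraries.

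Genes of the outer layer of the heart, of its pacemaker cells and of its ion channels were in part higher in the NP group. All 8 genes tested of the mesothelium and epicardium list, the cell layer that covers the heart, were higher, 6 of them at an unadjusted limma *P* below 0.05, and 0 passed after adjustment. Their median difference was 1.26, and it ranged from 0.68 to 2.61 over the alternative settings. In the N group against the same C libraries, the median was 1.47. The summed levels were 10.9 and 3.66 FPKM in the C libraries and 26.7 and 27.7 FPKM in the NP libraries. Upk3b, a membrane protein of mesothelial cells and the most abundant gene of the list, was at 3.11 and 0.251 FPKM in the C libraries and at 10.8 and 9.74 FPKM in the NP libraries. Lrrn4, another mesothelial gene, was at 0.474 and 0.0140 FPKM (fewer than 3 reads) in the C libraries and at 2.14 and 2.58 FPKM in the NP libraries.

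Of 8 tested genes of the pacemaker and conduction list, 3 were higher at an unadjusted *P* below 0.05 in limma, 0 lower and 0 past the threshold. Hcn4, the pacemaker channel, was at 1.85 FPKM in both C libraries and at 2.72 and 4.27 FPKM in the NP libraries. Shox2, a transcription factor of the sinus node, was at 0.246 and 0.269 FPKM in the C libraries and at 0.659 and 1.62 FPKM in the NP libraries. The list's median of 0.37 became -0.01 when a mean FPKM of at least 5 was required.

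Of the 27 ion channel genes, 7 were higher and 1 were lower at an unadjusted *P* below 0.05 in limma, 0 passed, and the median difference was 0.18. Cacna1h, a T-type calcium channel, was at 1.69 and 2.67 FPKM in the C libraries and at 6.18 and 6.97 FPKM in the NP libraries. Gja5, the gap junction protein connexin 40 of atrial and conduction cells, was at 2.66 and 3.16 FPKM in the C libraries and at 6.21 and 7.87 FPKM in the NP libraries. Kcnj3, a subunit of the atrial acetylcholine-gated potassium channel, was at 18.1 and 21.8 FPKM in the C libraries and at 33.4 and 45.9 FPKM in the NP libraries. The last 2 are also in the atrial list. How far these lists moved with the atrial genes was not tested.

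Targets of the drug's own receptor were lower in the NP hearts than in chow hearts. Of 30 listed PPARα targets, 25 were tested and 24 of them were lower in the NP group (22 with the same FPKM total), 12 lower and 1 higher at an unadjusted limma *P* below 0.05 and 0 past the threshold. Their median difference was -0.54, with 8 genes meeting the 1.5-fold rule downward and 1 upward. The median of the same genes in the N group against the same C libraries was -0.41. The summed level of the list, whose most abundant gene is Fabp3, was 15230 and 15960 FPKM in the C libraries and 10450 and 11750 FPKM in the NP libraries.

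Pdk4, the kinase that shuts off pyruvate dehydrogenase and spares glucose, was at 1038 and 1108 FPKM in the C libraries and at 338 and 89.5 FPKM in the NP libraries. The C mean was 5.02-fold the NP mean, and the libraries did not overlap (log2 difference -2.62, limma adjusted *P* = 0.602). In 2 of 16 alternative settings, both with a block for the replicate number among the N and NP libraries, Pdk4 passed the test, and over all 16 its limma adjusted *P* ranged from 0.0268 to 1.0. Angptl4, a secreted inhibitor of lipoprotein lipase, was at 35.5 and 32.8 FPKM in the C libraries and at 9.56 and 3.32 FPKM in the NP libraries. Ucp3, a mitochondrial uncoupling protein of muscle, was at 66.5 and 82.2 FPKM in the C libraries and at 19.5 and 15.4 FPKM in the NP libraries. All 3 genes were lower in both NP libraries than in both C libraries. In the N group these genes split by library: N replicate 1 lay near the C libraries and N replicate 2 near the NP libraries, with Pdk4 at 996 and 129 FPKM, Angptl4 at 39.1 and 5.60 FPKM and Ucp3 at 67.1 and 13.7 FPKM.

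Of the other listed targets, Cpt1a, Slc25a20 and Fabp3 were lower by smaller amounts, with no overlap between the groups. Cpt1a, the liver-type carnitine palmitoyltransferase, was at 21.3 and 23.2 FPKM in the C libraries and at 15.2 and 14.6 FPKM in the NP libraries. Slc25a20, the carnitine carrier of the inner membrane, was at 151 and 160 FPKM in the C libraries and at 112 and 120 FPKM in the NP libraries. Fabp3, the fatty acid carrier of heart muscle cells, was at 9888 and 10233 FPKM in the C libraries and at 5957 and 8109 FPKM in the NP libraries. Ucp2, an uncoupling protein also found in immune cells, was above chow, at 51.1 and 58.7 FPKM in the C libraries and at 98.1 and 101 FPKM in the NP libraries (log2 difference 0.85, limma adjusted *P* = 0.189). Fabp1, with the lowest difference of the list, belongs to the liver genes that C replicate 2 carried, at 144 FPKM there against 11.6 FPKM in C replicate 1.

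Clock genes differed between the libraries of a group. Of 19 tested genes of the circadian clock and its output, 0 passed in limma and 0 were past an unadjusted *P* of 0.05 in either direction. Dbp, a transcription factor whose message cycles over the day, was at 19.1 and 21.4 FPKM in the C libraries but at 2.72 and 64.4 FPKM in the NP libraries. Arntl, the core clock factor that peaks opposite to Dbp, was at 7.56 and 7.87 FPKM in the C libraries and at 15.7 and 2.0 FPKM in the NP libraries. The N libraries were as far apart, with Dbp at 3.62 and 48.8 FPKM and Arntl at 14.8 and 2.05 FPKM. In both groups on the diet, replicate 1 was low in Dbp and high in Arntl and replicate 2 the reverse, while the 2 C libraries lay together in between. Pdk4, Angptl4, Ucp3 and Txnip were also lower in replicate 2 than in replicate 1 of both groups. The part of this split in their values was not tested. Txnip, which binds thioredoxin and the inflammasome sensor, was at 619 and 587 FPKM in the C libraries and at 558 and 157 FPKM in the NP libraries.

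In the plot of PPARα targets and clock genes, the C replicates lie together for each gene. The NP replicates part widely for Dbp, Arntl, Txnip and Pdk4, and also for Angptl4.

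**Figure D3:**
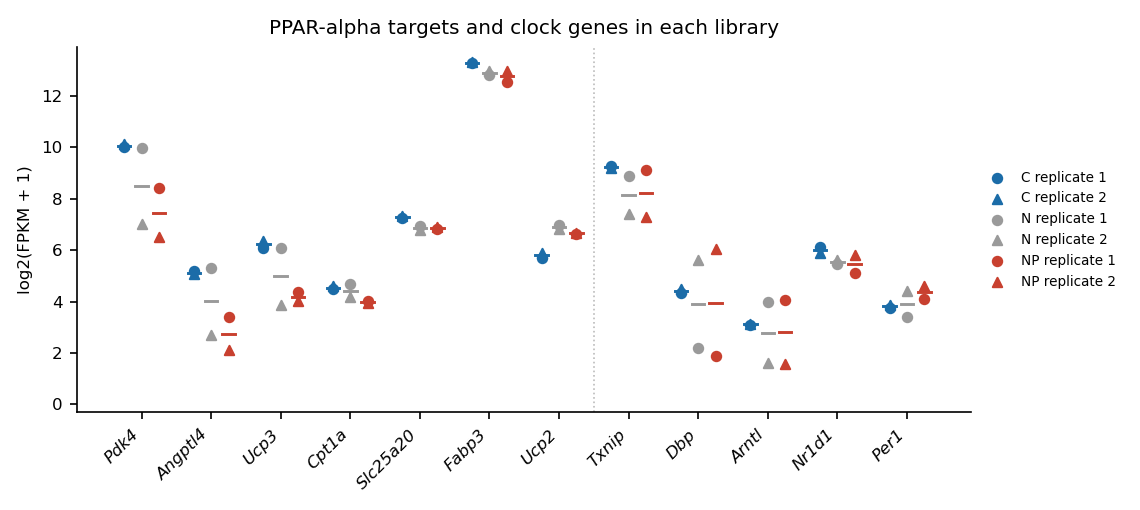
Level of PPARα targets (left of the dotted line) and of Txnip and clock genes (right) in each library, as log2(FPKM + 1), with bars at the group means. Pdk4 lies at 338 and 89.5 FPKM in the NP libraries, under the C libraries at 1038 and 1108 FPKM.

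Energy metabolism genes lay mostly below chow, by small amounts. All 28 genes of fatty acid uptake and beta-oxidation were lower in the NP group (25 with the same FPKM total and 24 with quantile normalization), 14 of them at an unadjusted limma *P* below 0.05, 0 past the threshold and 0 by the 1.5-fold rule, with a median difference of -0.29. The same genes had a median of -0.34 in the N group against the same C libraries. Acadm, the medium-chain acyl-CoA dehydrogenase, was at 990.0 and 1093 FPKM in the C libraries and at 727 and 793 FPKM in the NP libraries. Eci1, an isomerase that readies unsaturated fatty acids for oxidation, was at 348 and 388 FPKM in the C libraries and at 244 and 263 FPKM in the NP libraries. Neither gene overlapped between the groups.

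All 45 listed nuclear genes of the respiratory chain were lower (35 with the same FPKM total and 31 with quantile normalization), 12 at an unadjusted limma *P* below 0.05 and 0 past the threshold, with a median difference of -0.27 and 3 genes meeting the 1.5-fold rule downward. The respiratory chain list had a median of -0.35 in the N group against the same C libraries. Ndufb8, a subunit of complex I, was at 1606 and 1759 FPKM in the C libraries and at 1026 and 1152 FPKM in the NP libraries. Cox4i1 and Cox7a1, subunits of cytochrome c oxidase, had log2 differences of -0.61 and -0.69. Ribosomal protein genes, another group of short and abundant messages, had a median of -0.28, with 40 of 42 lower (33 with the same FPKM total and 32 with quantile normalization), 11 lower and 0 higher at an unadjusted *P* below 0.05, and 0 past the threshold in limma. Rps23, a protein of the small ribosomal subunit, was at 567 and 590.3 FPKM in the C libraries and at 422 and 367 FPKM in the NP libraries.

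Over all genes tested, the difference between the groups varied with message length and level. The median over the shortest eighth of genes, with transcripts of up to 828 bases, was -0.09, and over the longest eighth, from 4551 bases, it was 0.06. The median over the most abundant eighth of genes was -0.12. With the same FPKM total in each library, the median was -0.13 for the beta-oxidation list, -0.12 for the respiratory chain list and -0.12 for the ribosomal protein list, while the median of all genes was 0.12. The part of length, level and depth in the medians of these lists was not tested.

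LXR targets were mostly above chow in the NP group. Of 15 tested LXR targets, 12 were higher, 4 of them at an unadjusted limma *P* below 0.05 against 1 lower, with a median difference of 0.18 and 0 past the threshold. The median of the LXR targets was 0.42 in the N group against the same C libraries. Of 18 tested genes of fatty acid synthesis and desaturation, 2 were higher and 2 were lower at an unadjusted *P* below 0.05, and 0 passed in limma. Scd2, a stearoyl-CoA desaturase in both lists, was at 4.08 and 4.28 FPKM in the C libraries and at 12.1 and 15.2 FPKM in the NP libraries. Its NP mean was 3.26-fold the C mean with no overlap (log2 difference 1.49, limma adjusted *P* = 0.0578). Abcg1, an exporter of cholesterol to HDL, was at 1.18 and 0.972 FPKM in the C libraries and at 2.82 and 2.97 FPKM in the NP libraries. Abca1, the exporter that loads apolipoprotein A-I, was at 7.85 and 7.63 FPKM in the C libraries and at 14.6 and 12.5 FPKM in the NP libraries.

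Mylip, which marks the LDL receptor for breakdown, was at 11.7 and 13.7 FPKM in the C libraries and at 24.2 and 16.8 FPKM in the NP libraries. Scd1, the second desaturase, was at 4.36 and 8.19 FPKM in the C libraries and at 10.4 and 39.5 FPKM in the NP libraries. It was at 135 and 38.4 FPKM in the N libraries. The fat cell gene Cfd, described below, was likewise higher in NP replicate 2 and in N replicate 1. The part of fat cells in the Scd1 values was not tested. The 25 tested genes of cholesterol synthesis and the LDL receptor had a median of -0.02, which became 0.08 with the same FPKM total, with 0 higher and 1 lower at an unadjusted *P* below 0.05 and 0 past the threshold in limma. Of 18 tested genes of fatty acid synthesis and desaturation, 2 were higher and 2 lower at that level and 0 passed. Elovl5, a fatty acid elongase, had a log2 difference of 0.52, and Gpam, which starts glycerolipid synthesis in mitochondria, had one of -0.67.

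Of the genes nearest the threshold outside the atrial list, 2 that were higher encode secreted proteins. Gpx3, the glutathione peroxidase of plasma, was at 158 and 134 FPKM in the C libraries and at 355 and 391 FPKM in the NP libraries (log2 difference 1.35, limma adjusted *P* = 0.0578). Igfbp5, a binding protein of insulin-like growth factors, was at 27.3 and 28.1 FPKM in the C libraries and at 57.5 and 60.2 FPKM in the NP libraries (log2 difference 1.06, limma adjusted *P* = 0.0578). The N values lay beside those of the NP group, at 357 and 352 FPKM for Gpx3 and at 56.5 and 54.0 FPKM for Igfbp5. Neither gene overlapped between the NP and C groups. Of 16 alternative settings, Gpx3 passed the test in 8 and Igfbp5 in 6.

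Gpx1, Gpx4 and Mgst3, enzymes that work with glutathione, were among the genes chosen by the naming rule, and none of them passed the test. Gpx1, the peroxidase of the cytosol, was at 73.6 and 89.4 FPKM in the C libraries and at 49.9 and 56.3 FPKM in the NP libraries. Gpx4, which reduces lipid peroxides in membranes, was at 736 and 739 FPKM in the C libraries and at 478 and 510.2 FPKM in the NP libraries. Mgst3, a microsomal glutathione transferase, was at 644 and 675 FPKM in the C libraries and at 417 and 416 FPKM in the NP libraries. The whole list of NRF2 targets and antioxidant genes had 7 of 26 tested genes higher (17 with the same FPKM total) and a median of -0.09, which became 0.06 with that scaling, with 1 higher and 3 lower at an unadjusted *P* below 0.05 and 0 past the threshold in limma. Gchfr, which regulates the first enzyme of tetrahydrobiopterin synthesis, was at 8.73 and 9.28 FPKM in the C libraries and at 4.07 and 5.01 FPKM in the NP libraries. Psmg4, a chaperone of proteasome assembly, was at 19.97 and 20.98 FPKM in the C libraries and at 11.5 FPKM in both NP libraries.

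Macrophage genes were mostly lower in the NP hearts than in chow hearts, without passing the test. Of 18 tested macrophage genes, 15 were lower (13 with the same FPKM total) and 3 higher, with 3 lower and 0 higher at an unadjusted limma *P* below 0.05 and 0 past the threshold. Their median difference was -0.22, or -0.10 with the same FPKM total, while the same genes had a median of 0.72 in the N group against the same C libraries. The summed level of the list was 464 and 421 FPKM in the C libraries and 364 and 320.0 FPKM in the NP libraries. Lyz2, the lysozyme of macrophages and neutrophils and the most abundant gene of the list, was at 169 and 160 FPKM in the C libraries and at 112 and 104 FPKM in the NP libraries. Its C mean was 1.52-fold the NP mean with no overlap (log2 difference -0.60, limma adjusted *P* = 0.309).

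Tyrobp, a signalling adaptor of myeloid and natural killer cells, was at 31.5 and 28.9 FPKM in the C libraries and at 16.1 and 17.3 FPKM in the NP libraries. Ms4a6c, a membrane protein of monocytes and macrophages, was at 7.52 and 6.04 FPKM in the C libraries and at 3.14 and 3.28 FPKM in the NP libraries. Ccr2, the receptor that brings monocytes into tissue, was at 1.29 and 1.15 FPKM in the C libraries and at 0.357 and 0.312 FPKM in the NP libraries. Cd163, a haemoglobin receptor of resident macrophages, was at 11.6 and 12.1 FPKM in the C libraries and at 8.50 and 5.16 FPKM in the NP libraries. These 4 genes were lower in both NP libraries, although Tyrobp and Ms4a6c are not in the macrophage list. Tyrobp and Cd163 passed the test in 2 of 16 alternative settings each. Both settings had a block for the replicate number among the N and NP libraries. The general macrophage markers lay closer to chow. Adgre1, which encodes F4/80, was at 5.79 and 5.81 FPKM in the C libraries and at 5.01 and 4.17 FPKM in the NP libraries. Cd68 and Csf1r, further markers of macrophages, had log2 differences of -0.20 and -0.04 with overlapping groups, and that of Csf1r was 0.11 with the same FPKM total.

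In the plot of lipid, secreted and myeloid genes, the N values of Scd2, Gpx3 and Igfbp5 lie beside the NP values, while those of the plotted myeloid genes lie above both other groups. Cd163, which is not plotted, was at 16.5 and 9.87 FPKM in the N libraries.

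**Figure D4:**
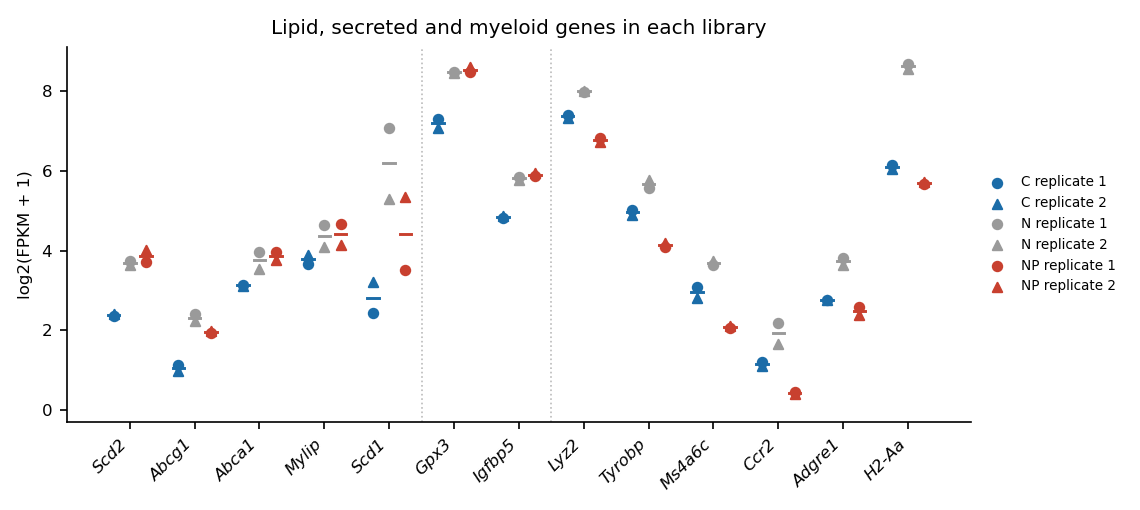
Level of genes of lipid handling (left), of secreted proteins (middle) and of myeloid cells and antigen presentation (right) in each library, as log2(FPKM + 1), with bars at the group means. Lyz2 lies at 169 and 160 FPKM in the C libraries and at 112 and 104 FPKM in the NP libraries.

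Genes of antigen presentation and the interferon response lay near or below chow. The 29 genes of the MHC and interferon-gamma list had a median difference of -0.15, 23 being lower, with 4 lower and 0 higher at an unadjusted limma *P* below 0.05 and 0 past the threshold. With the same FPKM total in each library, 18 of them were lower and the median difference was -0.01. The same genes had a median difference of 2.47 in the N group against the same C libraries. H2-Aa, a chain of MHC class II, was at 69.6 and 65.2 FPKM in the C libraries, at 414 and 374 FPKM in the N libraries and at 49.8 and 51.3 FPKM in the NP libraries. H2-Ab1, its partner chain, was at 53.5 and 47.4 FPKM in the C libraries and at 33.0 and 38.4 FPKM in the NP libraries. The 25 tested genes of the interferon response had a median of -0.01, which became 0.09 with the same FPKM total, with 1 higher and 1 lower at an unadjusted *P* below 0.05 and 0 past the threshold in limma. Their median was 1.42 in the N group. Oasl2, an antiviral protein, had a log2 difference of 0.44, and Mx2, another one, had one of -0.55.

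Lymphocyte genes were mostly below the level filter. Of 20 T and natural killer cell genes, 5 were tested, with 0 past an unadjusted *P* of 0.05 in limma and 0 past the threshold. Cd3e, a signalling subunit bound to the T cell receptor, was at 0.0309 and 0.0375 FPKM in the C libraries and at 0.0986 and 0 in the NP libraries. At the estimated depths, these nonzero values stand for about the same number of reads. Ccl5, a chemokine of T and natural killer cells, was at 0.953 and 0.723 FPKM in the C libraries and at 0.761 (fewer than 3 reads) and 0 in the NP libraries, against 14.6 and 18.8 FPKM in the N libraries. Of 11 B cell genes, 2 were tested and 0 passed either threshold in limma.

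Chemokines, cytokines and granule genes differed in both directions. Of 25 tested chemokine and cytokine genes, 5 were higher and 4 were lower at an unadjusted *P* below 0.05 and 0 passed in limma, with a median of 0.07. Ccl6 and Ccl9, chemokines of myeloid cells, had log2 differences of -0.78 and -0.56, and Ccl19, a ligand of the receptor CCR7, had one of 0.86. Among 9 tested genes of neutrophils and mast cells, 2 were higher and 1 lower at that level, 0 passed, and the median was 0.16. The mast cell proteases Tpsb2 and Mcpt4 were higher, Tpsb2 at 1.04 and 0.943 FPKM in the C libraries and at 3.45 and 2.80 FPKM in the NP libraries. S100a8, a granule protein of neutrophils, was at 2.97 and 1.80 FPKM in the C libraries and at 0 and 0.637 FPKM in the NP libraries, where the last value stands for fewer than 3 reads.

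Of 13 genes that the study named for the heart, 10 were tested, with 0 higher and 2 lower at an unadjusted *P* below 0.05 and 0 past the threshold in limma. Il1b, an interleukin that the inflammasome matures, was at 0.610 and 0.823 FPKM in the C libraries and at 0.325 and 0.209 FPKM in the NP libraries, where the last value stands for fewer than 3 reads. Pycard, the inflammasome adaptor, was at 3.42 and 3.22 FPKM in the C libraries and at 2.01 and 2.92 FPKM in the NP libraries. Akt1, a kinase of insulin and growth signals, had a log2 difference of 0.04. Nlrp3, the inflammasome sensor, was below the level filter, at 0.238 and 0.216 FPKM in the C libraries and at 0.190 and 0.0922 FPKM in the NP libraries. Il6 was listed at 0 in the 4 libraries, and Tnf was below 0.2 FPKM in them. Of the 12 tested genes of the inflammasome list, 0 were higher and 1 were lower at an unadjusted *P* below 0.05 and 0 passed in limma. Their median of -0.09 became 0.02 with the same FPKM total.

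Matrix genes were slightly higher in the NP group. Of 33 tested genes of extracellular matrix and fibrosis, 32 were higher, 11 of them at an unadjusted limma *P* below 0.05 against 0 lower, and 0 passed. Their median difference was 0.28, beside 0.11 in the N group against the same C libraries. Fmod, a proteoglycan that binds collagen fibrils, was at 1.47 and 2.86 FPKM in the C libraries and at 7.61 and 8.48 FPKM in the NP libraries. It had the highest difference of the list, 1.55 on the log2 scale, with no overlap between the groups. Postn, a matrix protein of activated fibroblasts, was at 13.3 and 14.2 FPKM in the C libraries and at 19.6 and 24.4 FPKM in the NP libraries. Cilp and Timp2, a matrix protein and an inhibitor of metalloproteinases, had log2 differences of 0.60 and 0.58. All 11 fibroblast genes were higher, with a median of 0.28, 3 of them higher and 0 lower at an unadjusted *P* below 0.05 and 0 past the threshold in limma.

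Complement genes had a median difference of 0.20 over 17 tested genes, 4 higher and 0 lower at an unadjusted *P* below 0.05 and 0 past the threshold in limma. One of the 4 was Cfd, which is also in the list of fat cell genes and is described with them below. C2, a protease of the classical pathway, was at 1.07 and 0.716 FPKM in the C libraries and at 2.18 and 2.26 FPKM in the NP libraries. It was higher in both NP libraries than in both C libraries.

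Genes of tissues other than heart muscle set single libraries apart. Alb, serum albumin of the liver, was at 10.8 and 211 FPKM in the C libraries and at 2.04 and 1.72 FPKM in the NP libraries. Apoa1 and Mup20, further liver genes, were at 99.9 and 137 FPKM in C replicate 2 and at 9.36 and 7.36 FPKM in C replicate 1. The list for lung, liver, thymus, skeletal muscle and nerve summed to 31.5 and 393 FPKM in the C libraries and to 9.86 and 8.43 FPKM in the NP libraries, with Alb as its most abundant gene. Of its 19 genes 7 were tested, 0 passed and 5 were lower at an unadjusted *P* below 0.05 in limma, and Sftpc of lung, Rag1 of thymus and Myh4 of skeletal muscle were at 0 in all libraries.

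Fat cell genes differed widely between the 2 NP libraries. Adipoq, the fat cell hormone adiponectin, was at 0.593 and 1.12 FPKM in the C libraries and at 1.66 and 11.9 FPKM in the NP libraries. It was at 15.96 and 14.6 FPKM in the N libraries, so that NP replicate 2 lay near the N libraries and NP replicate 1 near chow. Ucp1, the uncoupling protein of brown fat, was at 0 and 0.0640 FPKM (fewer than 3 reads) in the C libraries and at 0 and 12.97 FPKM in the NP libraries. Plin1, a coat protein of lipid droplets, was at 0 and 0.362 FPKM in the C libraries and at 0.732 and 4.89 FPKM in the NP libraries. Of 15 tested genes of white and brown adipocytes, 3 were higher and 2 were lower at an unadjusted *P* below 0.05 and 0 passed in limma. Their median of 0.21 was -0.07 at its lowest among the alternative settings. Cfd, the fat cell protease adipsin, was at 1.17 and 5.53 FPKM in the C libraries, at 142 and 53.5 FPKM in the N libraries and at 11.2 and 44.3 FPKM in the NP libraries. The N libraries held Ucp1 at 5.84 and 14.3 FPKM and Plin1 at 4.66 and 5.54 FPKM. Red blood cell messages set C replicate 1 apart, with Hba-a1, an alpha globin, at 29.95 FPKM against 158 FPKM in C replicate 2 and 153 FPKM in both NP libraries.

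The plot of gene lists places the atrial and the mesothelial genes at its top and the PPARα targets and the liver-rich list of other tissues at its bottom, with most lists close to 0.

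**Figure D5:**
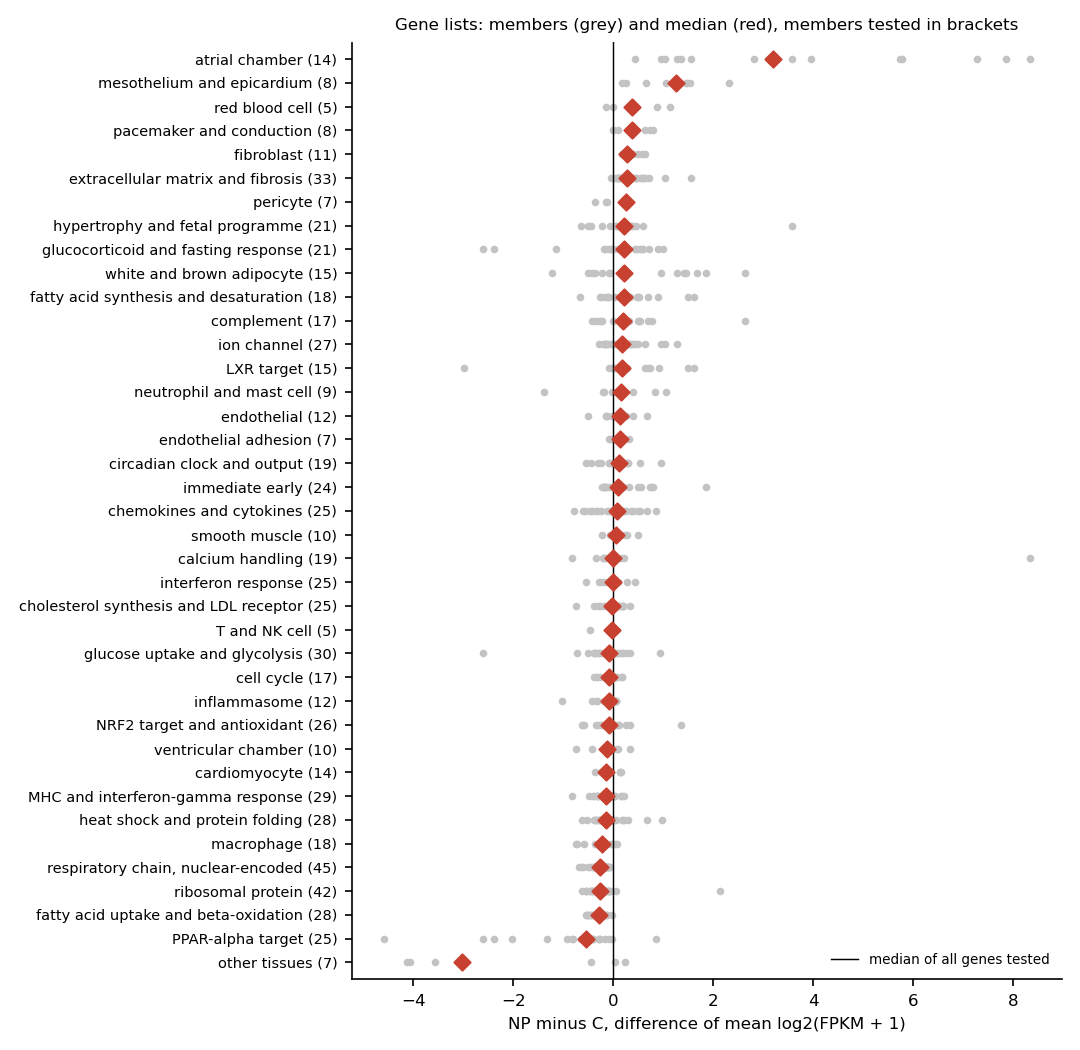
Difference between the NP and C groups in mean log2(FPKM + 1) for each tested member of a gene list (grey points) and the list median (red diamond), with the number of members tested in brackets. The medians run from 3.19 for atrial genes to -3.03 for genes of other tissues, and the vertical line is the median of all genes tested, -0.01.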

How the data were processed

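The authors deposited FPKM per gene symbol for 6 heart libraries, computed on mm10 with TopHat2 2.0.13, Bowtie2 2.2.3, SAMtools 0.1.19 and Cufflinks 2.2.1. Values were analysed as log2(FPKM + 1) with limma 3.58.1 in R 4.3.3. The 3 groups entered 1 model with 3 residual degrees of freedom, empirical Bayes moderation with a trend on level, two-sided tests and Benjamini-Hochberg adjustment over the 12923 genes whose FPKM averaged 0.5 or more. The fitting code was tested on simulated data. Lists of genes were described by counts and medians, with no test of a list.

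Depth was estimated for each library as the read total at which FPKM values of up to 5 reads, over 4107 genes with 200 bases taken off the transcript length, fell within 0.1 of a whole read. This held for 73.8% to 79.4% of the values used. Coordinates of genes and promoters are 1-based and come from RefSeq on GRCm38.p6. Transcript lengths, also those used for the depth estimates, and GC content come from GENCODE transcripts. Of the genes tested, 92.9% had a protein-coding transcript length there.

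The text names genes past the threshold, the genes with the smallest *P* or the largest difference in each direction, the 3 leading members and the defining markers of each list, and genes the study named for the heart. Other genes were chosen after their values were seen: Pdk4, Angptl4, Ucp3, Fabp3, Dbp, Arntl, Mylip and Scd1. The comparison, the rule for its members and the gene lists were chosen with earlier results of these data known. Of 841 list entries, 835 were found in the files. The alternatives were another pseudocount, other level filters, 3 scalings, a model of the C and NP libraries, blocks for the replicate number, no trend, and leaving out each C or NP library. A correction for transcript length and GC content was added after seeing the data.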

Additional observations from a re-analysis of the deposited data

How the results depend on the processing

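The 5 genes past the threshold (5 higher, 0 lower) became 12 (11 higher, 1 lower) with a pseudocount of 0.1, 10 (9 higher, 1 lower) with a mean FPKM of at least 5, and 10 (10 higher, 0 lower) with the same FPKM total in each library. With no filter limma passed 0 genes, of 17880 tested, with 1353 at an unadjusted *P* below 0.05. The same median gave 5 higher and 1 lower, the C and NP libraries alone 4 higher and 1 lower, and the correction for transcript length and GC content, chosen after seeing the data, 6 higher and 1 lower.

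The labels do not say that a replicate number marks anything shared. The differences between replicates 2 and 1 correlated across genes (Pearson) at 0.0471 for C with N, 0.124 for C with NP and 0.458 for N with NP. By rank (Spearman) these correlations were 0.23, 0.263 and 0.555. The N and NP replicates of 1 number thus deviated together, and the C replicates deviated less with them. With the replicate number as a block over the 3 groups, 20 genes passed (19 higher, 1 lower). With a block among N and NP, 55 passed (36 higher, 19 lower), and 49 (34 higher, 15 lower) with the length and GC correction as well.

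Leaving out 1 library at a time gave 6 to 101 genes past the threshold, 5 to 12 of them higher and 1 to 91 lower. The lone library left in a group was then taken to vary like the other groups. The genes at least 1.5-fold higher without overlap, 214, became 462 with a pseudocount of 0.1, 90 with a mean FPKM of at least 5 and 357 with the same total, and 256 to 418 without 1 library. Those lower, 245, became 389, 122 and 159, and 207 to 487 without 1 library. The cause of these shifts was not tested.

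Of 1521 gene values under the alternatives, 1510 kept their direction. With the same FPKM total, Tnnt2 (0.041) and Csf1r (0.11) turned to higher in the NP group, as did Tnnt2 (0.11) with quantile normalization. Without 1 library the log2 difference ranged from -0.13 to 0.38 for Myh6, -0.45 to 0.060 for Cd68, -0.20 to 0.11 for Csf1r, -0.045 to 3.76 for Ucp1, -2.51 to 1.62 for Dbp, -1.54 to 0.94 for Arntl and -0.049 to 2.31 for Hba-a1. Of 449 list medians under the alternatives, 78 moved by more than the spread between replicates, and 21 lists kept the sign of their median throughout.

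The shallower NP and N libraries limit what can be seen of genes at a few reads.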

Other observations

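Among genes that glucocorticoids and fasting induce, the NP group lay in both directions from chow. Of 21 tested genes of that list, 6 were higher and 2 were lower at an unadjusted *P* below 0.05 and 0 passed in limma. Irs2, a docking protein of the insulin receptor, was at 3.11 and 3.27 FPKM in the C libraries and at 6.95 and 6.62 FPKM in the NP libraries. Gadd45g, a stress sensor, was at 7.67 and 6.88 FPKM in the C libraries and at 14.1 and 11.02 FPKM in the NP libraries. Errfi1, a feedback inhibitor of the epidermal growth factor receptor, was at 13.8 and 14.5 FPKM in the C libraries and at 24.1 and 19.5 FPKM in the NP libraries. These 3 genes did not overlap between the groups, and the list's median of 0.21 was -0.00038 without NP replicate 1.

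Of 24 tested immediate early genes, 3 were higher and 0 were lower at an unadjusted *P* below 0.05 and 0 passed in limma. Nr4a3, an orphan nuclear receptor, was at 2.88 and 2.44 FPKM in the C libraries, at 10.6 FPKM in both N libraries and at 4.47 and 5.77 FPKM in the NP libraries. Of 28 genes of heat shock and protein folding, 20 were lower (14 with the same FPKM total), 3 of them at an unadjusted *P* below 0.05 against 0 higher, and 0 passed in limma. Sdf2l1, a chaperone partner of the endoplasmic reticulum, was at 8.31 and 10.6 FPKM in the C libraries and at 5.66 and 5.86 FPKM in the NP libraries. Hspa8, the constitutive heat shock protein of the cytosol, was at 1219 and 1414 FPKM in the C libraries and at 968 and 1056 FPKM in the NP libraries. Of 30 genes of glucose uptake and glycolysis, 0 were higher and 4 were lower at an unadjusted *P* below 0.05 and 0 passed in limma, with a median of -0.08 that became 0.07 with the same FPKM total.

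Genes of supporting cells of the heart lay on both sides of chow in the NP group. The median difference was 0.12 for 12 endothelial genes, 0.06 for 10 smooth muscle genes and 0.25 for 7 pericyte genes, with 1, 1 and 0 genes higher and 0 lower at an unadjusted *P* below 0.05 and 0 past the threshold in limma. The endothelial median turned to -0.09 without NP replicate 1, and the pericyte median was 0.39 with the same FPKM total in each library. Of 17 tested cell cycle genes, 0 were past an unadjusted *P* of 0.05 in limma in either direction and 0 passed.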
